A study of Rattus norvegicus with 19 samples.

Results

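The potassium channel genes of rat hearts are described here across 7 groups of a heart failure study. They were taken by name, as every gene symbol starting with Kcn in the count files, which gave 91 of the 17455 symbols. A filter on low counts left 12388 genes to test, among them 53 of the 91. Of the 38 that were not tested, 3 (Kcnj4, Kcnk9 and Kcns2) had no count in any library, 30 had between 1 and 10 counts in the library with most, and the other 5 (Kcnj13, Kcnk1, Kcnc4, Kcna3 and Kcnh8) reached at most 22. The symbols cover pore-forming subunits, their auxiliary subunits, and Kcnrg, which codes for a regulator that is not a channel subunit.

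Potassium channels let potassium leave the heart muscle cell, which ends each action potential and holds the cell at its negative resting voltage between beats. Voltage-gated subunits carry the transient outward and delayed rectifier currents of repolarization, inward rectifiers hold the resting voltage, and channels gated by acetylcholine, ATP, calcium, stretch or acid adjust excitability to the state of the cell. Atrial and ventricular muscle use different sets of these subunits, and many of the same genes are used by smooth muscle, nerve, glia, endothelium and immune cells, all of which a piece of heart also holds.

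The libraries are bulk RNA sequencing of hearts of Sprague-Dawley rats, 24 weeks old at the start, labelled wild type; the study names the left ventricle as the tissue. The control 5w group (n = 3) and the control 9w group (n = 3) drank water without L-NAME, which blocks nitric oxide synthases, and ate normal chow until weeks 5 and 9. The HFpEF group (n = 3), named for heart failure with preserved ejection fraction, was given L-NAME at 0.5 g/L in drinking water and a diet with 60% of its energy from lard for 5 weeks, and was taken at week 5. The other groups went through the same 5 weeks and were then gavaged daily for 4 weeks in phosphate-buffered saline: vehicle alone (untreated, n = 3), empagliflozin, an inhibitor of the kidney's glucose transporter, at 0.35 g/kg/day (EMPA, n = 2), pirfenidone, an antifibrotic drug, at 0.3 g/kg/day (PFD, n = 2), or both agents at these doses (EMPA + PFD, n = 3). The study's methods give L-NAME and the diet for 5 weeks, and its discussion speaks of an induction of 9 weeks. Total counts ran from 7430539 (EMPA library 1) to 13017754 (control 5w library 2), and levels are in CPM, the usual scaling of counts to a common library total, here with TMM factors; 1 count was worth between 0.0718 and 0.133 CPM.

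Some libraries stood apart from their labels. All 19 are labelled male, and the study describes the sequenced hearts as male. Transcripts of the Y-linked genes Eif2s3y and Ddx3 had a summed level of 0 CPM in HFpEF libraries 1 and 3, the 3 untreated libraries and both PFD libraries, and between 178 and 253 CPM in the other 12. LOC100911498, which the files list under a locus number and which is taken here as the X inactivation transcript, ran from 1375 to 2177 CPM in those 7 libraries and was at most 1.13 CPM elsewhere. The 3 MHC genes RT1-CE16, RT1-Bb and RT1-A3, whose alleles differ between rat stocks, summed to at most 0.268 CPM in all control 5w, HFpEF and EMPA libraries and to between 47.6 and 132 CPM in the remaining 11. The difference in Y-linked transcripts goes with the groups in untreated against control 9w and in EMPA + PFD against untreated, the MHC difference in control 9w against control 5w, and both in EMPA against untreated, so the named condition and these differences cannot be told apart there. PFD against untreated and EMPA + PFD against control 9w are matched on both, and HFpEF against control 5w is matched on the MHC genes and mixed on the Y-linked ones.

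Markers of other heart cells were also uneven. The 7 atrial markers (Myl4, Myl7, Sln, Nppa, Bmp10, Stard10 and Mybphl, with Nppa the most abundant and none at 0 in all libraries) summed to 5283, 199 and 23709.8 CPM in the control 9w libraries and to 78.0, 15077 and 506 CPM in the untreated ones. Control 9w libraries 3 and 1 and untreated library 2 therefore hold atrial transcripts that their group neighbours lack, and Sln, nearly confined to atria, stood at 695, 156 and 518 CPM in those 3 and at most 5.95 CPM in any other library; they are called the atrial-marked libraries below. The same 7 genes summed to 3302, 6132 and 4658 CPM in control 5w, 2098, 288 and 1981 in HFpEF, 713 and 5184 in EMPA, 2998 and 83.1 in PFD and 105, 401 and 172 in EMPA + PFD, where Nppa made up most of the sum. Myl7 was also present in control 5w, at 694, 293 and 307 CPM beside 7.75, 15.3 and 39.7 in HFpEF. In HFpEF against control 5w the 7 atrial markers had a median log2 fold change of -1.28, with 0 called. The 10 ventricular cardiomyocyte markers (Myh6 the most abundant, none at 0) summed to 99324, 48877 and 53832 CPM in control 5w, 15293, 23534 and 41445 in HFpEF and 41957, 47539 and 44745 in control 9w. They summed to 76218, 20594 and 67221 CPM in untreated, 56048 and 45410.0 in EMPA, 77700.2 and 81040.4 in PFD and 91041, 114793 and 90409 in EMPA + PFD. HFpEF library 1 and untreated library 2 are the lowest of all 19, and the EMPA + PFD libraries lie above all untreated and control 9w libraries. Of these 10 markers, 3 were called lower in HFpEF than in control 5w (median log2 fold change -1.28) and 4 higher in EMPA + PFD than in control 9w (median 1.33). Another 2 comparisons had 1 call each, higher in EMPA + PFD than in untreated (median 0.84) and lower in control 9w than in control 5w (median -0.55). The part of these markers in the channel results was not tested, and in bulk tissue fewer cells of a type and less RNA per cell cannot be told apart.

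**Figure D1:**
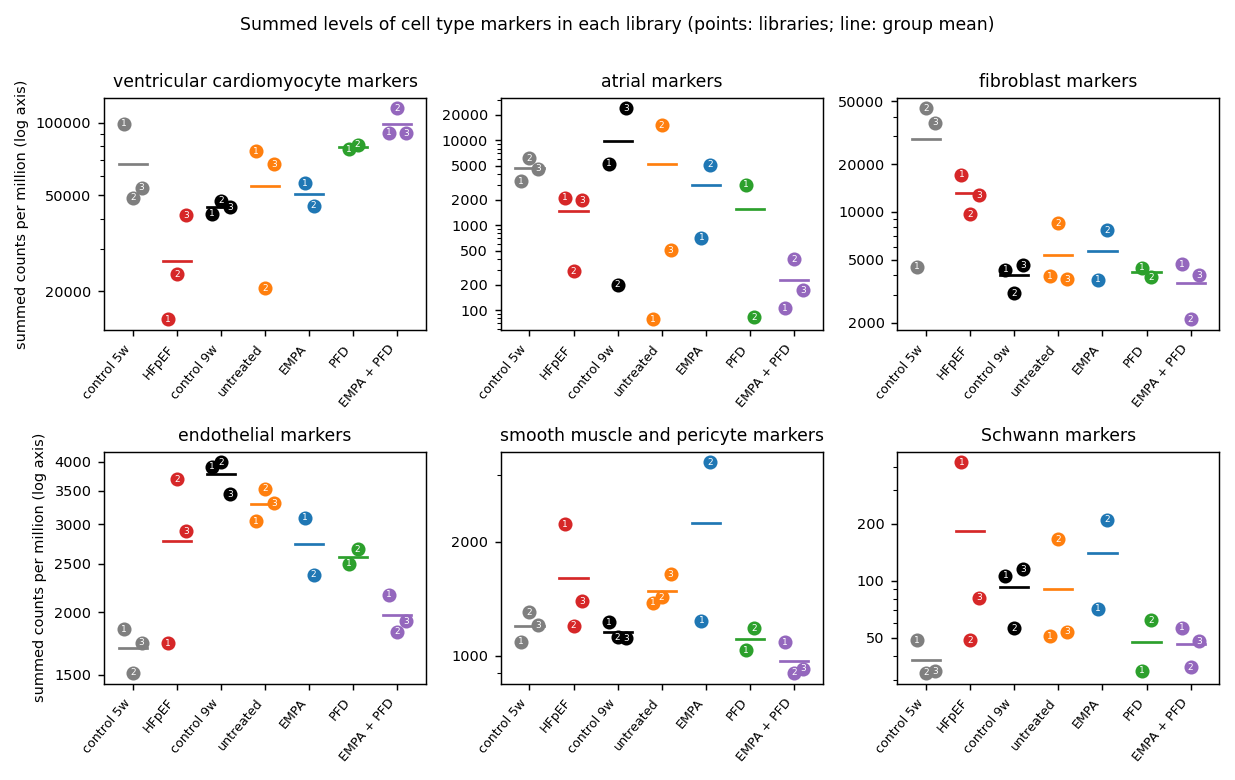
Summed CPM (log axis) of 6 marker lists in each library by group, points numbered by replicate, with lines at the group means. HFpEF library 1 and untreated library 2 are lowest in ventricular cardiomyocyte markers, and control 9w libraries 1 and 3 and untreated library 2 stand above their group neighbours in atrial markers.

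A gene was called when its edgeR adjusted p, corrected over all 12388 genes, was under 0.05 and its log2 fold change was 1 or more in size. HFpEF against control 5w asks what the 5 weeks of L-NAME and diet did: 2 of the 53 Kcn genes were called higher, beside 4.28% of all genes, and 11 lower, beside 4.41%. The median log2 fold change was -0.10 over the Kcn genes and 0.02 over all genes tested. Those 13 calls became 6 without control 5w library 1 or HFpEF library 1, 8 without control 5w library 3 or HFpEF library 2, and 7 without HFpEF libraries 1 and 3 together. Between the controls, which differ in age by 4 weeks, control 9w against control 5w gave 7 higher (7.46% of all genes) and 11 lower (7.21%), with medians of 0.03 and -0.04. These 18 calls became 11 without control 9w library 1, 10 without control 9w library 2, and 13 when the 3 atrial-marked libraries (control 9w 1 and 3 and untreated 2) were left out together. The disease contrast at week 9, untreated against control 9w, was also run with DESeq2 (3 higher and 3 lower) and limma voom (3 higher and 8 lower). By edgeR it gave 1 higher (0.339% of all genes) and 1 lower (0.573%), with medians of -0.06 and 0.01. These 2 calls became 0 without control 9w library 1 or 2, without untreated library 1, or without the atrial-marked libraries; 1 without control 5w library 3, control 9w library 3, untreated library 3, EMPA library 1 or 2, PFD library 1 or 2 or EMPA + PFD library 2; and 4 without EMPA + PFD library 1.

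The effect of treatment is the question of the comparisons with the untreated group. EMPA + PFD against untreated gave 5 Kcn genes higher, beside 2.34% of all genes, and 0 lower, beside 1.48%, with medians of -0.17 and -0.03; limma voom, run as an alternative, gave 9 higher and 1 lower. The 5 became 0 without untreated library 2, untreated library 3 or EMPA + PFD library 2, 1 without EMPA + PFD library 3 or without the atrial-marked libraries, and 9 without EMPA + PFD library 1. Under upper-quartile scaling 46.6% of the called genes of this comparison were higher, beside 61.3% as tested, and the Kcn split was 5 and 0 under both. EMPA + PFD against control 9w, which sets the treated hearts beside hearts that never had the disease regimen, gave 10 higher (7.15% of all genes) and 3 lower (4.92%), with medians of 0.02 and -0.08. These 13 calls became 8 without control 9w library 1 and 6 without control 9w library 2 or EMPA + PFD library 2. In EMPA against untreated edgeR called 0 Kcn genes, where 0.0404% of all genes were called; at an unadjusted p under 0.05 there were 9 of 53, beside 8.63% of all genes, and DESeq2 called 1 and limma voom 0. In PFD against untreated edgeR also called 0, where 0.00807% of all genes were called; 3 of 53 had an unadjusted p under 0.05, beside 5.21% of all genes, and DESeq2 and limma voom called 0. The interaction of both agents, (EMPA + PFD minus PFD) minus (EMPA minus untreated), had 0 calls by edgeR, beside 0.00807% of all genes. In it 6 of 53 had an unadjusted p under 0.05, beside 9.13% of all genes, and DESeq2 and limma voom each called 1. EMPA is the only group of this test without the MHC transcripts, and 1 of the 3 MHC genes was called (median 10.6). The interaction and this difference therefore cannot be told apart. The Kcn medians depended on the members tested: over the 26 with at least 10 counts in every library they were -0.83 (HFpEF against control 5w), 0.69 (EMPA + PFD against untreated), 0.45 (EMPA + PFD against control 9w) and 0.59 (the disease-by-week difference below), and over the 88 with a count 0.02, -0.23, -0.01 and -0.15. By limma voom the first 2 were -0.21 and 0.03. Comparisons that share a group share its libraries, so their values below are not independent of each other.

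Whether the disease contrast differed between weeks was tested as a disease-by-week difference, (untreated minus control 9w) minus (HFpEF minus control 5w). It was called higher for 8 Kcn genes, beside 6.35% of all genes, and lower for 3, beside 5.67%, with a median of 0.24 over the Kcn genes and -0.02 over all genes. DESeq2 gave 9 higher and 6 lower, and limma voom 11 higher and 11 lower with a Kcn median of 0.03. These 11 calls became 6 without untreated library 1 and 7 without control 5w library 2 or 3, control 9w library 1 or 2 or untreated library 3. Cell markers moved in the same edgeR test: 3 of 10 ventricular ones were called higher (median 1.64), 3 of 8 endothelial (-1.01), 3 of 4 erythroid (-3.28), 2 of 4 mesothelial and 1 of 7 lymphocyte ones lower, 1 of 8 smooth muscle ones higher and 1 of 7 conduction ones each way; their part was not tested. A positive value can come from a low level in HFpEF or control 9w, or from a high level in control 5w or untreated. The levels in all 4 groups are therefore given with each gene.

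**Figure D2:**
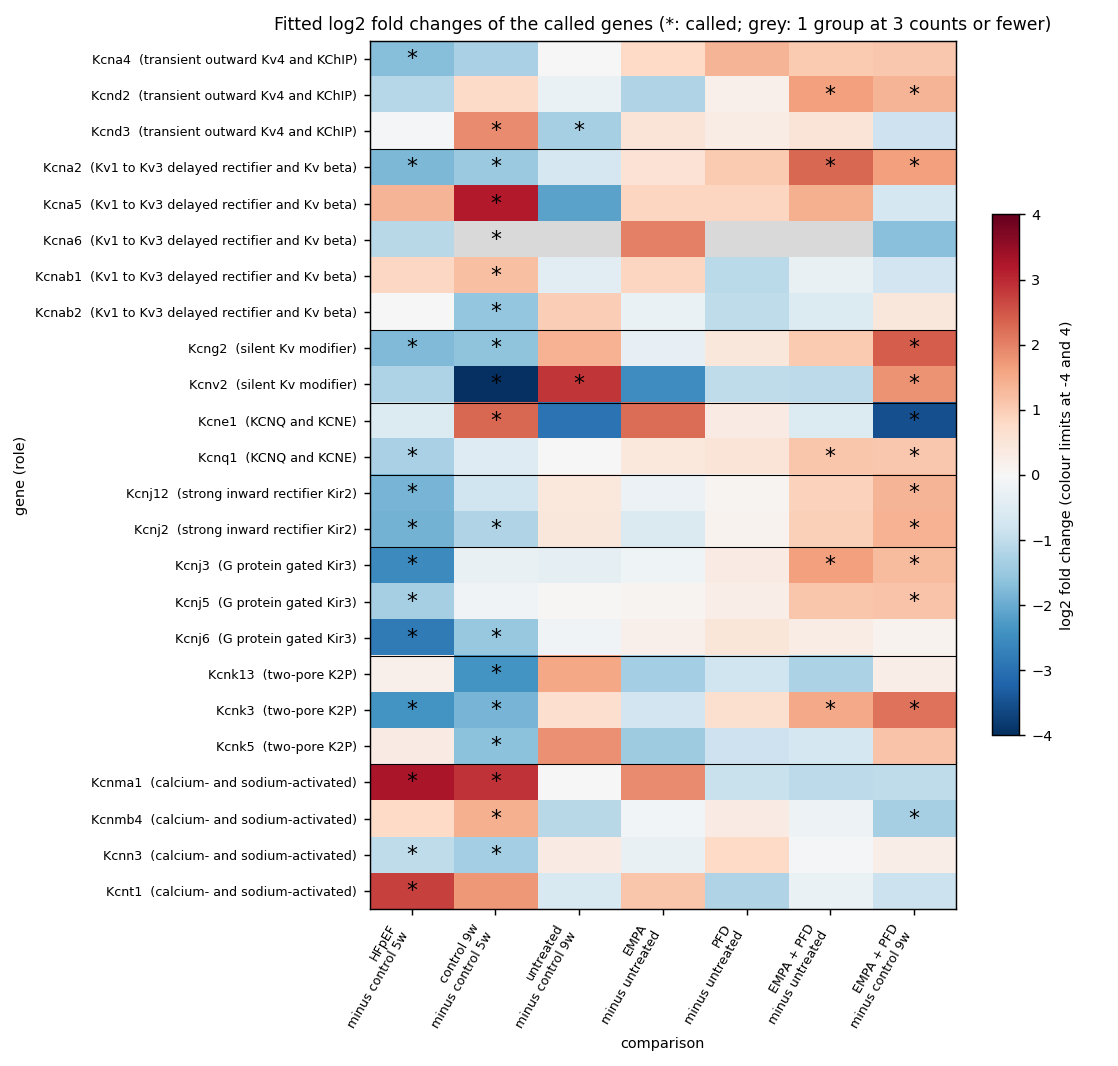
Fitted log2 fold changes (colour scale cut at -4 and 4) of 24 of the 25 potassium channel genes called in at least 1 of the 7 comparisons, grouped by role; stars mark calls and grey marks cells where 1 group had at most 3 counts in every library. The inward rectifier genes Kcnj2, Kcnj12, Kcnj3 and Kcnj5 are lower in HFpEF than in control 5w and higher in EMPA + PFD than in control 9w, and no cell of EMPA or PFD against untreated is starred.

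Strong inward rectifiers of the Kir2 family carry the current that clamps the resting voltage of ventricular muscle. Kcnj2, which codes for Kir2.1, its main ventricular pore, stood at 19.8, 12.9 and 16.2 CPM in the control 5w libraries (replicates 1 to 3, as in all lists below) and at 2.94, 5.32 and 5.00 in HFpEF, then at 7.67, 5.90 and 7.68 in control 9w and 11.7, 7.23 and 10.3 in untreated. It was at 9.19 and 4.01 CPM in EMPA, 10.5 and 10.8 in PFD and 15.8, 20.2 and 20.3 in EMPA + PFD. All HFpEF libraries lay below all control 5w libraries, untreated overlapped control 9w, and all EMPA + PFD libraries lay above both. Kcnj2 fell in HFpEF (edgeR log2 fold change -1.88 ± 0.30 SE, adjusted p 0.00147) and was lower in control 9w than in control 5w (-1.20, adjusted p 0.00666). It was higher in EMPA + PFD than in control 9w (edgeR 1.40, adjusted p 0.00320), while against untreated its log2 fold change of 0.95, adjusted p 0.0454 by edgeR, stayed under the fold threshold. The disease-by-week difference was 2.34 ± 0.42 (SE, edgeR adjusted p 0.00307), since the week 9 contrast was 0.46 and the week 5 contrast -1.88. None of these 4 calls was lost without any single library, and without HFpEF libraries 1 and 3 edgeR gave -1.61 (adjusted p 0.0338) in HFpEF against control 5w. With the atrial-marked libraries left out, edgeR gave 1.67 (adjusted p 0.0227) in EMPA + PFD against control 9w.

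Kcnj12, which codes for Kir2.2, a partner of Kir2.1 in the same current, was at 19.3, 9.39 and 9.15 CPM in control 5w, 3.09, 2.66 and 4.73 in HFpEF, 6.54, 4.67 and 10.3 in control 9w and 12.9, 5.60 and 10.5 in untreated. Its levels were 6.26 and 10.1 CPM in EMPA, 8.65 and 11.9 in PFD and 14.4, 23.1 and 17.7 in EMPA + PFD. Control 5w library 1 was the highest of its group, the HFpEF libraries were below every control 5w library, and EMPA + PFD was above every untreated and control 9w library. Kcnj12 fell in HFpEF (edgeR log2 fold change -1.85 ± 0.40 SE, adjusted p 0.00817), and its disease-by-week difference was 2.27 ± 0.56 (SE, edgeR adjusted p 0.0132). The latter call was kept without any single library. Kcnj12 was higher in EMPA + PFD than in control 9w (edgeR 1.35, adjusted p 0.0166); against untreated the value was 0.93 (adjusted p 0.109). The Kcnj12 call in HFpEF was kept without any single library, and was lost in the fit of the compared groups alone, and without HFpEF libraries 1 and 3 edgeR gave -2.24 (adjusted p 0.0458). The Kcnj12 call in EMPA + PFD was lost without control 9w library 1 or 2 or EMPA + PFD library 2 (edgeR adjusted p up to 0.0748). Kcnj14 (Kir2.4) was tested and called in no comparison, with its largest edgeR value in control 9w against control 5w at 0.93 (adjusted p 0.0704), and Kcnj4 (Kir2.3) had no count in any library. Over the 3 Kir2 genes tested, 2 were called lower in HFpEF (median log2 fold change -1.85) and 2 higher in EMPA + PFD against control 9w (median 1.35), beside 4.41% and 7.15% of all genes, with medians of 0.02 and -0.08. Summed ventricular markers were lower in the HFpEF libraries and higher in the EMPA + PFD libraries, as given above, and their part in the Kir2 values was not tested.

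**Figure D3:**
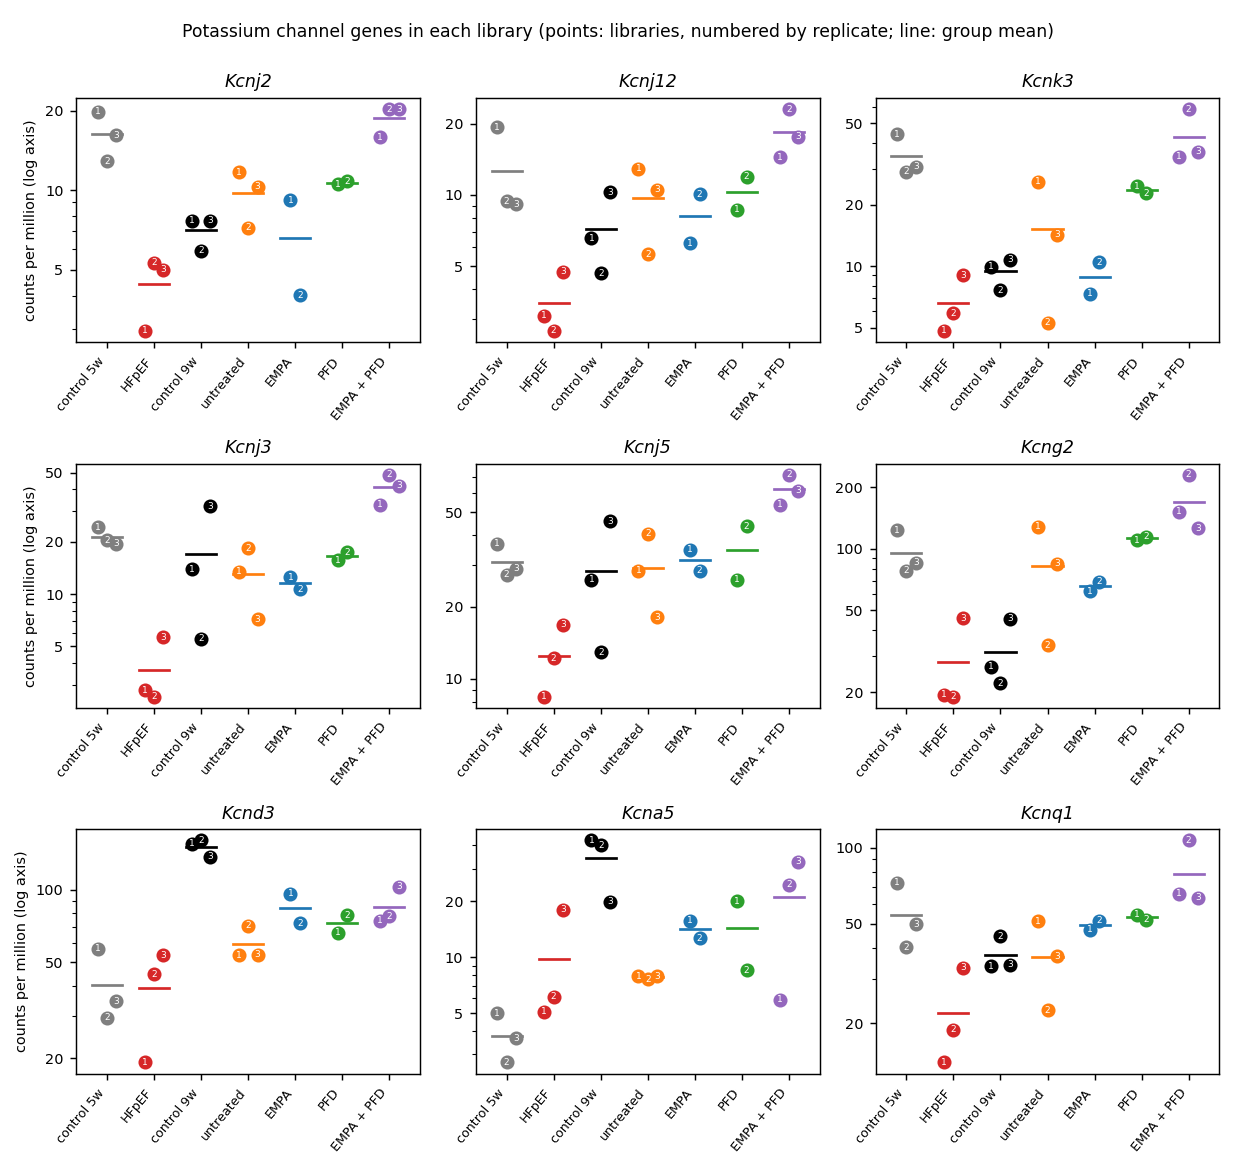
Level in CPM (log axis) of 9 potassium channel genes in each of the 19 libraries by group, points numbered by replicate, lines at the group means. Kcnj2, Kcnj12, Kcnk3, Kcnj3, Kcnj5, Kcng2 and Kcnq1 are lower in all HFpEF than in all control 5w libraries, and Kcnd3 is higher in all control 9w libraries than in any library of the other groups.

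Kir3 channels open when the muscarinic or adenosine receptor frees G protein beta-gamma subunits, and in the heart they slow the beat under vagal tone, mainly in atria and nodes. Kcnj3 (Kir3.1) and Kcnj5 (Kir3.4) form that cardiac channel. Kcnj3 stood at 24.2, 20.4 and 19.5 CPM in control 5w, 2.80, 2.57 and 5.63 in HFpEF, 13.9, 5.53 and 31.9 in control 9w and 13.4, 18.3 and 7.17 in untreated. In the treated groups it was at 12.5 and 10.7 CPM (EMPA), 15.7 and 17.4 (PFD) and 32.6, 48.5 and 41.9 (EMPA + PFD). The HFpEF libraries were all far below the control 5w libraries, the control 9w libraries spread from low in library 2 to high in library 3, and EMPA + PFD lay just above the highest control 9w library. Kcnj3 fell in HFpEF (edgeR log2 fold change -2.55 ± 0.50 SE, adjusted p 0.00520) and rose in EMPA + PFD against untreated (edgeR log2 fold change 1.65 ± 0.47 SE, adjusted p 0.0365). It was also higher in EMPA + PFD than in control 9w (edgeR 1.25, adjusted p 0.0479), and its disease-by-week difference was 2.14 (adjusted p 0.0377) by edgeR. The fall in HFpEF was called without any single library and was -3.05 (adjusted p 0.0363) by edgeR without HFpEF libraries 1 and 3.

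The Kcnj3 call against untreated was lost without untreated library 1, 2 or 3 or EMPA + PFD library 2 or 3 (edgeR adjusted p up to 0.130), and in the fit of the compared groups alone. The Kcnj3 call against control 9w was kept in 7 of the 19 fits that left out 1 library, those without control 5w library 1, HFpEF library 1, 2 or 3, control 9w library 3 or untreated library 2 or 3, with an edgeR adjusted p of up to 0.143 in the others, and was lost in upper-quartile scaling, the fit of all genes with a count and the fit of the compared groups alone. The Kcnj3 disease-by-week call was lost without control 5w library 1, 2 or 3, HFpEF library 1 or 2, control 9w library 1 or 2 or untreated library 1 or 2 (edgeR adjusted p up to 0.0843), and in the fit of the compared groups alone; without HFpEF libraries 1 and 3 edgeR gave 2.65 (adjusted p 0.0653). The control 9w order of Kcnj3, library 3 over 1 over 2, is that of the summed atrial markers, and untreated library 2 is the highest of its group in both; their part in these results was not tested. Leaving out the atrial-marked libraries gave edgeR values of 2.00 (adjusted p 0.0417) against untreated, 2.89 (adjusted p 0.00349) against control 9w and 3.44 (adjusted p 0.00329) for the disease-by-week difference.

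Kcnj5 was at 36.8, 27.2 and 29.0 CPM in control 5w, 8.40, 12.2 and 16.8 in HFpEF, 25.9, 12.9 and 45.7 in control 9w and 28.4, 40.6 and 18.1 in untreated. It was at 34.8 and 28.4 CPM in EMPA, 26.0 and 43.6 in PFD and 53.7, 71.7 and 61.3 in EMPA + PFD. As with its partner, no HFpEF library reached a control 5w library, the highest control 9w and untreated libraries were those with most atrial transcripts, and EMPA + PFD lay above all of both groups. Kcnj5 fell in HFpEF (edgeR log2 fold change -1.32 ± 0.39 SE, adjusted p 0.0301) and was higher in EMPA + PFD than in control 9w (1.14, adjusted p 0.0337), while against untreated edgeR gave 1.10 (adjusted p 0.0690). The Kcnj5 call in HFpEF was lost without control 5w library 1 or 3 or HFpEF library 1 or 2 (edgeR adjusted p up to 0.103), and in limma voom; without HFpEF libraries 1 and 3 edgeR gave -1.35 (adjusted p 0.154). The Kcnj5 call in EMPA + PFD was lost without control 9w library 1 or 2 or EMPA + PFD library 2 or 3 (edgeR adjusted p up to 0.120), and without the atrial-marked libraries the value was 2.27 (adjusted p 0.00574). Kcnj6 (Kir3.2), a pore better known from neurons, was at 2.73, 2.33 and 2.23 CPM in control 5w, 0.431, 0.367 and 0.179 in HFpEF, 0.677, 0.615 and 1.20 in control 9w and 0.739, 0.325 and 1.26 in untreated. Every control 5w library was above every library of those other 3 groups. Kcnj6 was lower in HFpEF (edgeR -2.83, adjusted p 0.00593) and in control 9w (edgeR -1.52, adjusted p 0.0385) than in control 5w, and its disease-by-week difference was 2.70 (adjusted p 0.0318) by edgeR.

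The call of Kcnj6 in HFpEF was kept without any single library, but without HFpEF libraries 1 and 3 edgeR gave -2.69 (adjusted p 0.0773). The Kcnj6 call in control 9w was lost without control 5w library 1, 2 or 3, control 9w library 1 or 2 or PFD library 1 or 2 (edgeR adjusted p up to 0.129); without the atrial-marked libraries edgeR gave -1.96 (adjusted p 0.104). The Kcnj6 disease-by-week call was lost without control 5w library 1, HFpEF library 2 or 3, control 9w library 1 or 2 or untreated library 1 or 3 (edgeR adjusted p up to 0.107); without HFpEF libraries 1 and 3 edgeR gave 2.54 (adjusted p 0.126). Kcnj9 (Kir3.3), also neuronal, was called in no comparison; its lowest unadjusted p was in EMPA against untreated, at 2.53 and 3.04 CPM in EMPA beside 0.633, 1.71 and 1.05 in untreated (edgeR 1.27, adjusted p 0.430). Of the 4 Kir3 genes, 3 were called lower in HFpEF (median log2 fold change -1.93) and 1 in control 9w (median -0.33), beside 4.41% and 7.21% of all genes, with medians of 0.02 and -0.04.

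Kir6 pores open when ATP falls and couple the membrane voltage to metabolism, Kcnj11 (Kir6.2) in heart muscle and Kcnj8 (Kir6.1) mainly in vascular cells. Kcnj11 stood at 129, 62.6 and 77.0 CPM in control 5w, 28.3, 51.6 and 71.9 in HFpEF, 76.3, 82.4 and 92.7 in control 9w, 170.1, 38.3 and 162 in untreated and 170.3, 162 and 127 in EMPA + PFD. HFpEF library 1 and untreated library 2 were its lowest, as they were for the ventricular markers, and the groups overlapped in HFpEF against control 5w and in EMPA + PFD against untreated. Kcnj8 was at 100.1, 56.5 and 59.5 CPM in control 5w, 34.6, 116 and 68.7 in HFpEF, 63.5, 78.2 and 45.0 in control 9w, 97.9, 63.4 and 75.6 in untreated and 86.2, 42.9 and 34.8 in EMPA + PFD, with wide overlap. Neither was called in any of the 7 comparisons by edgeR; the values in HFpEF against control 5w were -0.82 (adjusted p 0.189) for Kcnj11 and 0.02 (adjusted p 0.978) for Kcnj8. Of the 5 Kir genes that serve potassium transport in kidney, glia and epithelia, 1 (Kcnj15) passed the filter, and it was called in no comparison.

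Pores with a pair of pore loops per subunit (K2P) carry background currents that need no voltage step. Kcnk3 (TASK-1), shut by acid outside the cell, stood at 44.3, 29.0 and 30.6 CPM in control 5w, 4.81, 5.87 and 9.02 in HFpEF, 9.93, 7.63 and 10.8 in control 9w and 25.8, 5.28 and 14.2 in untreated. It was at 7.32 and 10.4 CPM in EMPA, 24.6 and 22.7 in PFD and 34.3, 58.8 and 36.3 in EMPA + PFD. All HFpEF and all control 9w libraries were below all control 5w libraries, untreated library 2 was below the control 9w range and the other untreated libraries above it, and EMPA + PFD was above both groups. Kcnk3 fell in HFpEF (edgeR log2 fold change -2.40 ± 0.43 SE, adjusted p 0.00297), was lower in control 9w than in control 5w (edgeR -1.87, adjusted p 0.00437), and rose in EMPA + PFD against untreated (edgeR 1.52, adjusted p 0.0320). EMPA + PFD was also higher than control 9w (edgeR 2.19, adjusted p 0.00229), and the disease-by-week difference was 3.07 (adjusted p 0.00473) by edgeR. Of these 5 calls, 4 were kept without any single library; the call against untreated was lost without untreated library 2 or 3 or EMPA + PFD library 2 or 3 (edgeR adjusted p up to 0.138), and in the fit of the compared groups alone. Without HFpEF libraries 1 and 3 the edgeR value in HFpEF was -2.56 (adjusted p 0.0362), and without the atrial-marked libraries those in EMPA + PFD were 1.11 (adjusted p 0.129) against untreated and 2.50 (adjusted p 0.00680) against control 9w.

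Kcnk13 (THIK-1), a pore known from microglia, was at 1.51, 5.04 and 4.93 CPM in control 5w and 0.451, 0.492 and 1.20 in control 9w, and at 6.82, 2.20 and 4.20 in HFpEF. Control 5w libraries 2 and 3 were high beside library 1, and all were above all control 9w libraries (edgeR log2 fold change -2.39 ± 0.53 SE, adjusted p 0.00391). Kcnk5 (TASK-2), opened by alkali, was at 3.67, 1.94 and 2.07 CPM in control 5w and 1.47, 0.369 and 0.598 in control 9w, with no overlap (edgeR -1.63, adjusted p 0.0314). The Kcnk13 call was kept without any single library, and without the atrial-marked libraries edgeR gave -2.93 (adjusted p 0.0370). The Kcnk5 call was lost without control 5w library 1 or control 9w library 2 or 3 (edgeR adjusted p up to 0.126), and in limma voom and the fit of the compared groups alone. Control 5w libraries 2 and 3 also held 44963 and 36468 CPM of summed fibroblast markers, beside 4505 in library 1, and 1923 and 1535 CPM of summed myeloid markers, beside 536; the part of these cells in the Kcnk13 value was not tested. Kcnk2 (TREK-1), opened by stretch, was at 12.0, 6.76 and 27.9 CPM in control 9w and 15.8, 17.3 and 7.17 in untreated. Within each of these groups the library with most atrial transcripts was highest, in untreated only just above library 1. Kcnk2 was at 19.2, 3.88 and 5.01 CPM in control 5w and 1.22, 5.59 and 4.20 in HFpEF. In EMPA + PFD, where the atrial markers summed to 105, 401 and 172 CPM, it was at 17.4, 29.6 and 34.8. The part of atrial transcripts in these values was not tested. Kcnk2 was called in no comparison (edgeR -1.36, adjusted p 0.213 in HFpEF against control 5w), nor was Kcnk6 (TWIK-2), which ran from 0.564 to 2.15 CPM over the 19 libraries. Kcnk1 (TWIK-1) was not tested, with at most 11 counts in a library.

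The transient outward current shapes the early notch of the action potential and, in rodents, most of repolarization. Kcnd3 (Kv4.3), a pore of its fast part, stood at 56.9, 29.4 and 34.5 CPM in control 5w, 19.2, 44.7 and 53.5 in HFpEF, 155, 159.8 and 137 in control 9w and 53.5, 71.0 and 53.6 in untreated. It was at 96.0 and 72.4 CPM in EMPA, 66.4 and 78.4 in PFD and 74.3, 77.6 and 103 in EMPA + PFD. The control 9w libraries were above every library of the other 6 groups. Kcnd3 was higher in control 9w than in control 5w (edgeR log2 fold change 1.90 ± 0.31 SE, adjusted p 0.000705) and fell in untreated against control 9w (edgeR log2 fold change -1.34 ± 0.31 SE, adjusted p 0.0405). Its disease-by-week difference was -1.30 (adjusted p 0.0472) by edgeR, and EMPA + PFD lay below control 9w by a log2 fold change of -0.83, adjusted p 0.0485 by edgeR, under the fold threshold. The call between controls was kept without any single library. The Kcnd3 call in untreated was kept in 8 of the 19 fits that left out 1 library, those without control 5w library 1 or 2, HFpEF library 1, 2 or 3, untreated library 2 or EMPA + PFD library 1 or 3, with an edgeR adjusted p of up to 0.176 in the others, and was lost in the fit of all genes with a count. The Kcnd3 disease-by-week call was kept in 3 of the 19 fits that left out 1 library, those without control 5w library 1, HFpEF library 1 or untreated library 2, with an edgeR adjusted p of up to 0.112 in the others, and was lost in the fit of all genes with a count and the fit of the compared groups alone. Leaving the atrial-marked libraries out, edgeR gave 1.99 (adjusted p 0.00750) between controls, -1.58 (adjusted p 0.104) in untreated against control 9w and -1.53 (adjusted p 0.0776) for the disease-by-week difference.

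Kcnd2 (Kv4.2), the other pore of the fast current, was at 4.52, 4.58 and 3.58 CPM in control 5w, 1.58, 1.56 and 2.59 in HFpEF, 7.11, 6.40 and 8.08 in control 9w and 10.3, 2.35 and 5.48 in untreated. It was at 2.93 and 2.31 CPM in EMPA, 4.93 and 8.95 in PFD and 16.2, 18.5 and 21.1 in EMPA + PFD. Each EMPA + PFD library exceeded every library of the other groups. Kcnd2 rose in EMPA + PFD against untreated (edgeR log2 fold change 1.63 ± 0.39 SE, adjusted p 0.0210) and was higher than in control 9w (edgeR 1.37, adjusted p 0.0143). The Kcnd2 call against untreated was lost without untreated library 2 or 3 or EMPA + PFD library 2 or 3 (edgeR adjusted p up to 0.0747), and in the fit of the compared groups alone, and the call against control 9w was lost without control 9w library 2 (edgeR adjusted p 0.0564). In a fit without the atrial-marked libraries, edgeR gave 1.23 (adjusted p 0.0981) against untreated and 1.54 (adjusted p 0.0305) against control 9w. Its interaction of both agents was 2.62 ± 0.65 (SE), with an unadjusted p of 0.00106 and an edgeR adjusted p of 0.292, and HFpEF against control 5w was -1.15 (adjusted p 0.0619) by edgeR. By edgeR the interaction thus failed the correction, with EMPA alone at or below 2.93 CPM and PFD alone within the untreated range. It was called by DESeq2 (log2 fold change 2.65, adjusted p 0.0217) and limma voom (2.73, adjusted p 0.0449). The MHC difference of the EMPA libraries, given above, also enters it.

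Kcna4 (Kv1.4), pore of the slow transient outward current, was at 8.76, 4.27 and 5.49 CPM in control 5w and 0.789, 1.93 and 3.04 in HFpEF. All HFpEF libraries were below all control 5w libraries, and the gene fell (edgeR log2 fold change -1.69 ± 0.51 SE, adjusted p 0.0306). The Kcna4 call was lost without control 5w library 1 or 3 or HFpEF library 1 or 2 (edgeR adjusted p up to 0.106), and in the fit of the compared groups alone; without HFpEF libraries 1 and 3 edgeR gave -1.67 (adjusted p 0.138). Kcnip2 (KChIP2), the cytoplasmic partner that brings Kv4 pores to the membrane, was at 63.8, 23.8 and 26.4 CPM in control 5w, 10.1, 18.6 and 26.7 in HFpEF, 46.7, 13.6 and 51.2 in untreated and 51.4, 94.3 and 99.1 in EMPA + PFD. HFpEF library 1 and untreated library 2 were the lowest, and Kcnip2 was called in no comparison, with edgeR values of -1.04 (adjusted p 0.133) in HFpEF and 1.14 (adjusted p 0.113) in EMPA + PFD against untreated. Kcnd1 (Kv4.1), Kcnip3 and Kcnip4 were called in no comparison either, and Kcnip1 was not tested; RefSeq places Kcnip1 over Kcnmb1, so reads of that pair could be shared. Kcnd1 was at 2.45, 12.2 and 11.2 CPM in control 5w and 11.9, 5.78 and 8.66 in HFpEF, high in the libraries with most fibroblast markers (control 5w 2 and 3 and HFpEF 1). The part of fibroblasts in the Kcnd1 levels was not tested.

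Delayed rectifiers of the Kv1 to Kv3 families carry sustained outward current, and Kcna5 (Kv1.5) is known for the ultrarapid current of atria. Kcna5 stood at 4.99, 2.72 and 3.66 CPM in control 5w, 5.10, 6.14 and 18.0 in HFpEF, 42.5, 40.1 and 19.9 in control 9w and 7.91, 7.63 and 7.90 in untreated. It was at 15.7 and 12.6 CPM in EMPA, 20.0 and 8.54 in PFD and 5.91, 24.5 and 32.6 in EMPA + PFD. The untreated libraries lay close together and below all control 9w libraries, while HFpEF library 3 stood well above the rest of its group. Kcna5 was higher in control 9w than in control 5w (edgeR log2 fold change 3.18 ± 0.60 SE, adjusted p 0.00160), and its disease-by-week difference was -3.49 ± 0.81 (SE, edgeR adjusted p 0.0105). Both calls were kept without any single library; without the atrial-marked libraries edgeR gave 3.41 (adjusted p 0.00909) and -3.70 (adjusted p 0.0259), and without HFpEF libraries 1 and 3 the disease-by-week difference was -2.83 (adjusted p 0.0429). In untreated against control 9w edgeR gave -2.13 (adjusted p 0.0657), which fails the correction. Within control 9w, the atrial-marked libraries 1 and 3 stood at 42.5 and 19.9 CPM and library 2 at 40.1. The part of atrial transcripts in the Kcna5 values was not tested.

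Kcna2 (Kv1.2) was at 5.46, 2.48 and 1.99 CPM in control 5w, 0.502, 1.19 and 1.16 in HFpEF, 1.13, 0.738 and 1.60 in control 9w and 0.739, 0.974 and 0.421 in untreated. It was at 1.60 and 0.607 CPM in EMPA, 1.64 and 1.34 in PFD and 4.02, 2.99 and 3.87 in EMPA + PFD. Control 5w library 1 was the highest of all, and the control 5w and EMPA + PFD libraries were all above those of the other 5 groups. Kcna2 fell in HFpEF (edgeR -1.80, adjusted p 0.0182) and was lower in control 9w than in control 5w (edgeR -1.49, adjusted p 0.0250). It rose in EMPA + PFD against untreated (edgeR log2 fold change 2.31 ± 0.49 SE, adjusted p 0.0144) and was higher than in control 9w (edgeR 1.63, adjusted p 0.0176). The Kcna2 call in HFpEF was lost without control 5w library 1 or HFpEF library 1 (edgeR adjusted p up to 0.0864), and in the fit of the compared groups alone; without HFpEF libraries 1 and 3 edgeR gave -1.46 (adjusted p 0.185). The Kcna2 call between controls was lost without control 5w library 1 or control 9w library 1 or 2 (edgeR adjusted p up to 0.130), and in limma voom and the fit of the compared groups alone. The Kcna2 call against untreated was lost without untreated library 2 or 3 or EMPA + PFD library 2 (edgeR adjusted p up to 0.0533), and in the fit of the compared groups alone, and the call against control 9w was lost without control 9w library 1 or 2 (edgeR adjusted p up to 0.0746). Without the atrial-marked libraries edgeR gave -2.14 (adjusted p 0.0708) between controls, 2.62 (adjusted p 0.0738) against untreated and 2.28 (adjusted p 0.0605) against control 9w.

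The cytoplasmic beta subunits went opposite ways between the controls: Kcnab1, which speeds the inactivation of Kv1 pores, was at 3.39, 5.66 and 3.90 CPM in control 5w and 9.36, 5.66 and 15.1 in control 9w, where library 2 overlapped control 5w (edgeR 1.21, adjusted p 0.0241). Kcnab2 was at 2.83, 3.88 and 2.86 CPM in control 5w and 0.902, 0.492 and 1.79 in control 9w, without overlap (edgeR -1.55, adjusted p 0.0145); RefSeq places Nphp4 over this gene, so some of its reads could belong to Nphp4. The Kcnab1 call was lost without control 5w library 1 or 3 or control 9w library 3 (edgeR adjusted p up to 0.127), and in the fit of the compared groups alone, and without the atrial-marked libraries its value was 0.39 (adjusted p 0.580). The Kcnab2 call was lost without control 5w library 2 or control 9w library 1 or 2 (edgeR adjusted p up to 0.0672).

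Kcna6 (Kv1.6), a neuronal Kv1 pore, had 0, 172 and 145 counts in control 5w, 1, 0 and 3 in control 9w, 103, 15 and 30 in HFpEF and 0, 21 and 0 in untreated. Control 5w libraries 2 and 3 held 13.3 and 11.5 CPM and library 1 none, so the groups overlapped although edgeR called Kcna6 lower in control 9w (adjusted p 0.0206). The Kcna6 call was lost without control 5w library 2 or control 9w library 1 or 2 (edgeR adjusted p up to 0.0777); without the atrial-marked libraries its edgeR adjusted p was 0.124. After control 5w libraries 2 and 3, the most Kcna6 was in HFpEF library 1 (7.39 CPM) and EMPA library 2 (4.86 CPM). These 4 libraries also held the most Col1a1, a collagen gene of fibroblasts, at 2542, 2989, 9900.5 and 7974 CPM (HFpEF 1, EMPA 2, control 5w 2 and 3). The summed 8 fibroblast markers did not follow this in EMPA library 2, at 7682 CPM. HFpEF libraries 2 and 3 (9629 and 12721 CPM) and untreated library 2 (8458 CPM) lay above it. The part of fibroblasts in these values was not tested. Kcna7 (Kv1.7), a muscle pore, was at 3.38, 2.58 and 4.19 CPM in control 9w and 9.70, 5.50 and 8.57 in EMPA + PFD (edgeR 1.22, adjusted p 0.0525, not called), and Kcnc2 (Kv3.2) was called in no comparison.

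Silent Kv subunits form no channel alone and change the gating of the pores they join. Kcng2 (Kv6.2), known for its expression in heart, stood at 123, 78.4 and 85.5 CPM in control 5w, 19.4, 18.98 and 45.7 in HFpEF, 26.5, 22.1 and 45.6 in control 9w and 128, 33.9 and 84.5 in untreated. It was at 61.9 and 69.2 CPM in EMPA, 110.3 and 115 in PFD and 152, 229.8 and 126 in EMPA + PFD. The HFpEF and control 9w libraries were all below the control 5w libraries, untreated overlapped control 9w only in library 2, and EMPA + PFD overlapped untreated in library 3. Kcng2 fell in HFpEF (edgeR log2 fold change -1.77 ± 0.45 SE, adjusted p 0.0150) and was lower in control 9w than in control 5w (edgeR -1.60, adjusted p 0.0131). It was higher in EMPA + PFD than in control 9w (edgeR 2.42, adjusted p 0.00194), and its disease-by-week difference was 3.16 (adjusted p 0.00511) by edgeR. The Kcng2 call in HFpEF was lost without HFpEF library 1 or 2 (edgeR adjusted p up to 0.0580), and in the fit of the compared groups alone; without HFpEF libraries 1 and 3 edgeR gave -2.33 (adjusted p 0.0423). The Kcng2 call between controls was lost without control 9w library 1 or 2 (edgeR adjusted p up to 0.0639), while those in EMPA + PFD and of the disease-by-week difference were kept without any single library. With the atrial-marked libraries left out, edgeR gave 2.93 (adjusted p 0.00607) in EMPA + PFD against control 9w.

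Kcnv2 (Kv8.2), known from the retina, was at 13.1, 16.2 and 20.3 CPM in control 5w, 6.39, 10.2 and 4.64 in HFpEF, 0.902, 0.369 and 1.30 in control 9w and 4.22, 12.2 and 2.53 in untreated. In the treated groups it was at 0.400 and 1.82 CPM (EMPA), 2.41 and 3.81 (PFD) and 3.31, 2.63 and 3.24 (EMPA + PFD). The control 9w libraries were all below those of control 5w, HFpEF and untreated, and untreated library 2 was high beside its neighbours. Kcnv2 was lower in control 9w than in control 5w (edgeR log2 fold change -4.23 ± 0.62 SE, adjusted p 0.000366) and higher in untreated than in control 9w (edgeR log2 fold change 2.85 ± 0.61 SE, adjusted p 0.0318). Against control 9w it was also higher in EMPA + PFD (edgeR 1.80, adjusted p 0.0386), and its disease-by-week difference was 4.08 (adjusted p 0.00473) by edgeR. The calls between controls and of the disease-by-week difference were kept without any single library. The Kcnv2 call in untreated was lost without control 9w library 1 or 2 or untreated library 1 (edgeR adjusted p up to 0.144), and in the fit of the compared groups alone. The Kcnv2 call in EMPA + PFD was lost without control 9w library 1 or 2 or EMPA + PFD library 1, 2 or 3 (edgeR adjusted p up to 0.135), and in upper-quartile scaling and the fit of all genes with a count. Leaving the atrial-marked libraries out, edgeR gave -5.44 (adjusted p 0.00203) between controls and 3.15 (adjusted p 0.0894) in untreated against control 9w. RefSeq places Pum3 over Kcnv2, so some of its reads could belong to Pum3. Kcns3 (Kv9.3) and Kcng4 (Kv6.4) were called in no comparison, and the other 6 silent subunits were not tested.

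The slow delayed rectifier is built from Kcnq1 (Kv7.1), the pore, and Kcne1, a small subunit that slows it, while Kcnh2 (ERG) is the pore of the rapid one. Kcnq1 stood at 72.7, 40.2 and 49.7 CPM in control 5w, 14.0, 18.9 and 33.4 in HFpEF, 33.8, 44.5 and 34.2 in control 9w and 51.1, 22.6 and 37.1 in untreated. It was at 47.3 and 51.4 CPM in EMPA, 54.1 and 51.8 in PFD and 65.9, 107 and 63.3 in EMPA + PFD. The HFpEF libraries were below all control 5w libraries, and the EMPA + PFD libraries above all untreated and control 9w libraries. Kcnq1 fell in HFpEF (edgeR log2 fold change -1.30 ± 0.34 SE, adjusted p 0.0173) and rose in EMPA + PFD against untreated (edgeR log2 fold change 1.10 ± 0.33 SE, adjusted p 0.0459). It was also higher in EMPA + PFD than in control 9w (edgeR 1.07, adjusted p 0.0236). The Kcnq1 call in HFpEF was lost without control 5w library 1 or HFpEF library 1 or 2 (edgeR adjusted p up to 0.0667), and in limma voom and the fit of the compared groups alone; without HFpEF libraries 1 and 3 edgeR gave -1.52 (adjusted p 0.0502). The Kcnq1 call against untreated was kept in 6 of the 19 fits that left out 1 library, those without control 5w library 1, HFpEF library 1, 2 or 3, untreated library 1 or EMPA + PFD library 1, with an edgeR adjusted p of up to 0.193 in the others, and was lost in the fit of all genes with a count, limma voom and the fit of the compared groups alone. The Kcnq1 call against control 9w was lost without control 9w library 1 or 3 or EMPA + PFD library 2 (edgeR adjusted p up to 0.112). In a fit without the atrial-marked libraries, edgeR gave 0.84 (adjusted p 0.236) against untreated and 0.82 (adjusted p 0.228) against control 9w.

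Kcne1 was at 1.70, 0.698 and 0.875 CPM in control 5w, 4.17, 1.35 and 10.5 in control 9w, 0.633, 0.487 and 0.948 in untreated and 1.18, 0.120 and 0.104 in EMPA + PFD. Control 9w libraries 3 and 1, which hold atrial transcripts, were its highest, while untreated library 2, which holds them too, was at 0.487 CPM. It was higher in control 9w than in control 5w, with overlap in library 2 (edgeR 2.30, adjusted p 0.0334), and lower in EMPA + PFD than in control 9w without overlap (edgeR -3.51, adjusted p 0.00823). The Kcne1 call between controls was lost without control 5w library 2 or 3 or control 9w library 1 or 3 (edgeR adjusted p up to 0.203), and in the fit of the compared groups alone, and without the atrial-marked libraries edgeR gave 0.32 (adjusted p 0.850). The call in EMPA + PFD was kept without any single library, but the same omission gave -1.53 (adjusted p 0.362) by edgeR. Kcnh2 was at 68.1, 40.9 and 42.3 CPM in control 5w and 11.9, 30.9 and 36.4 in HFpEF, without overlap; its log2 fold change of -0.94, adjusted p 0.0399 by edgeR, stayed under the fold threshold. The other 7 genes of its family were not tested. Kcne2, Kcne3, Kcne4 and Kcnq5 were called in no comparison. Kcne4, which damps Kv7.1, was at 0.942, 5.59 and 5.25 CPM in control 5w and 10.05, 1.83 and 6.52 in HFpEF. Among these it was high in the libraries with most fibroblast markers. EMPA library 2, with a lower fibroblast sum than HFpEF library 2, was at 6.92 CPM. The part of fibroblasts in the Kcne4 levels was not tested.

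Calcium- and sodium-activated channels tie the voltage to ion levels inside the cell. Kcnma1 (BK), the large-conductance pore best known from smooth muscle, stood at 0, 0.310 and 0.0796 CPM in control 5w, 2.51, 0.367 and 1.34 in HFpEF, 0.790, 0.738 and 1.70 in control 9w and 0.666 and 7.41 in EMPA. HFpEF library 1 and EMPA library 2 were its highest, and the control 5w counts were 0, 4 and 1. All HFpEF and all control 9w libraries were above all control 5w libraries, and edgeR called Kcnma1 higher in HFpEF (3.27, adjusted p 0.0293) and in control 9w (2.88, adjusted p 0.0374). The Kcnma1 call in HFpEF was lost without control 5w library 1 or 3 or HFpEF library 1 (edgeR adjusted p up to 0.116); without HFpEF libraries 1 and 3 edgeR gave 1.34 (adjusted p 0.557). The Kcnma1 call in control 9w was lost without control 5w library 1 or 3 or control 9w library 1, 2 or 3 (edgeR adjusted p up to 0.120); without the atrial-marked libraries edgeR gave 2.33 (adjusted p 0.277). Kcnmb1, the smooth muscle subunit that makes BK more sensitive to calcium, was likewise highest in EMPA library 2 (10.9 CPM) and HFpEF library 1 (7.39 CPM), and was called in no comparison. The 8 smooth muscle and pericyte markers (Pdgfrb the most abundant, none at 0) summed to 1089.7, 1303 and 1203 CPM in control 5w, 2224, 1199.9 and 1395 in HFpEF, 1226, 1119.5 and 1113 in control 9w and 1379, 1428 and 1638 in untreated. They summed to 1237 and 3244 CPM in EMPA, 1035 and 1183 in PFD and 1085, 901 and 923 in EMPA + PFD, again highest in EMPA library 2 and HFpEF library 1, and their part in the Kcnma1 calls was not tested.

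Kcnt1 (Slack), a sodium-activated pore best known from neurons, was at 0.188, 0.388 and 0.716 CPM in control 5w and 5.45, 1.19 and 2.14 in HFpEF, without overlap (edgeR 2.72, adjusted p 0.0318). The Kcnt1 call was lost without control 5w library 1, 2 or 3 or HFpEF library 1 (edgeR adjusted p up to 0.141), and in the fit of the compared groups alone; without HFpEF libraries 1 and 3 edgeR gave 1.42 (adjusted p 0.409). HFpEF library 1, its highest, also had the highest summed Schwann markers of all libraries: the 6 found in the files (none at 0 in all libraries) summed to 48.5, 32.6 and 33.2 CPM in control 5w, 422, 48.4 and 81.1 in HFpEF, 106, 56.1 and 115 in control 9w and 51.1, 165 and 53.6 in untreated. They summed to 71.0 and 209 CPM in EMPA, where library 2 also had the second highest Kcnt1 (3.77 CPM), 33.4 and 61.9 in PFD and 56.5, 34.9 and 48.1 in EMPA + PFD. Of these 6, 3 were called higher in HFpEF (median log2 fold change 2.44); their part in the Kcnt1 value was not tested. Kcnn3 (SK3), a small-conductance pore, was at 10.3, 9.23 and 8.75 CPM in control 5w, 2.73, 5.04 and 6.34 in HFpEF, 3.05, 4.80 and 3.29 in control 9w and 5.91, 3.41 and 4.74 in untreated. All HFpEF, control 9w and untreated libraries were below all control 5w libraries, and edgeR called it lower in HFpEF (-1.01, adjusted p 0.0345) and in control 9w (-1.34, adjusted p 0.00561), with a disease-by-week difference of 1.34 (adjusted p 0.0471).

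The Kcnn3 call in HFpEF was lost without control 5w library 1, 2 or 3 or HFpEF library 1 or 2 (edgeR adjusted p up to 0.115), and in upper-quartile scaling, the fit of all genes with a count, the fit of genes with 10 counts in every library, limma voom and the fit of the compared groups alone; without HFpEF libraries 1 and 3 edgeR gave -0.90 (adjusted p 0.158). The call between controls was kept without any single library, and without the atrial-marked libraries edgeR gave -0.97 (adjusted p 0.139). The Kcnn3 disease-by-week call was kept in 5 of the 19 fits that left out 1 library, those without HFpEF library 3, control 9w library 2, untreated library 2 or EMPA library 1 or 2, with an edgeR adjusted p of up to 0.129 in the others, and was lost in the fit of all genes with a count and the fit of the compared groups alone; without HFpEF libraries 1 and 3 edgeR gave 1.24 (adjusted p 0.0984), and without the atrial-marked libraries 1.16 (adjusted p 0.165). Kcnmb4, a BK subunit best known from brain, was at 2.07, 1.55 and 1.51 CPM in control 5w, 3.23, 2.02 and 3.57 in HFpEF, 4.06, 5.90 and 3.89 in control 9w, 1.48, 3.00 and 1.79 in untreated and 1.06, 1.43 and 2.93 in EMPA + PFD. The control 9w libraries were above all libraries of those other 4 groups. Kcnmb4 was higher in control 9w than in control 5w (edgeR 1.43, adjusted p 0.0149) and lower in EMPA + PFD than in control 9w (edgeR -1.33, adjusted p 0.0226), with a disease-by-week difference of -1.91 (adjusted p 0.0306) by edgeR. The Kcnmb4 call between controls was lost without control 5w library 2 or 3 or control 9w library 2 (edgeR adjusted p up to 0.0665). The Kcnmb4 call in EMPA + PFD was lost without control 9w library 2 or EMPA + PFD library 1 or 2 (edgeR adjusted p up to 0.0896), and in limma voom. The Kcnmb4 disease-by-week call was lost without control 5w library 2 or 3, HFpEF library 1 or 3, control 9w library 2 or untreated library 1 or 3 (edgeR adjusted p up to 0.0835); without HFpEF libraries 1 and 3 edgeR gave -1.36 (adjusted p 0.204). Kcnn2 (SK2) was at 3.67, 0.621 and 0.557 CPM in control 5w, with library 1 high, 1.16, 0.568 and 0.738 in untreated and 2.48, 2.51 and 3.24 in EMPA + PFD, and was not called (edgeR 1.74, adjusted p 0.0834 in EMPA + PFD against untreated), nor were Kcnn1 (SK1), Kcnn4, Kcnmb2 and Kcnt2.

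For the single agents, the 9 Kcn genes with an unadjusted p under 0.05 in EMPA against untreated were Kcnd2, Kcne1, Kcnj9, Kcnk13, Kcnk5, Kcnma1, Kcnn2, Kcnt2 and Kcnv2. The lowest of these was that of Kcnv2, with EMPA below all untreated libraries (log2 fold change -2.49 ± 0.70 SE, unadjusted p 0.00300, edgeR adjusted p 0.277). In PFD against untreated they were Kcna4, Kcnab1 and Kcnn3, with log2 fold changes of 1.36, -1.07 and 0.81 and an edgeR adjusted p of 0.786 for each. Kcna4 was at 6.35 and 6.48 CPM in PFD beside 4.11, 2.03 and 1.37 in untreated. Each single-agent group has 2 libraries, and edgeR made no call for either; DESeq2 called Kcnv2 lower with EMPA, log2 fold change -2.50, its 1 Kcn call. For the genes called higher in EMPA + PFD against untreated, the log2 fold changes with EMPA and with PFD were 0.59 and 1.03 (Kcna2), -1.20 and 0.21 (Kcnd2), -0.17 and 0.34 (Kcnj3), -0.75 and 0.66 (Kcnk3), and 0.42 and 0.52 (Kcnq1), all against the same untreated libraries and none called by edgeR. The edgeR interaction test called none of the 5, and its lowest adjusted p among them was 0.292, for Kcnd2, which DESeq2 and limma voom called (log2 fold change 2.65 and 2.73).

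Genes outside the family that steer these channels were taken from a list of 43 partners, of which 41 were in the files and 33 were tested. In HFpEF against control 5w, 1 was called higher and 11 lower (median log2 fold change -0.43), beside 4.28% and 4.41% of all genes (median 0.02). In control 9w against control 5w, 2 were called higher and 7 lower (median -0.25), beside 7.46% and 7.21% of all genes (median -0.04). Untreated against control 9w gave 0 higher and 1 lower, beside 0.339% and 0.573% of all genes. The 1 lower was the G protein subunit gene Gnai3 (edgeR -1.11, adjusted p 0.0206). EMPA + PFD gave 3 higher and 0 lower against untreated (median 0.48), beside 2.34% and 1.48% of all genes (median -0.03). Against control 9w it gave 8 higher and 1 lower (median 0.33), beside 7.15% and 4.92% of all genes (median -0.08). The disease-by-week difference was called for 11 higher and 2 lower, beside 6.35% and 5.67% of all genes. EMPA or PFD alone and their interaction had 0 calls by edgeR, beside 0.0404%, 0.00807% and 0.00807% of all genes. At an unadjusted p under 0.05 by edgeR there were 1, 1 and 3, beside 8.63%, 5.21% and 9.13% of all genes. DESeq2 and limma voom counts were not computed for this list. Chrm2, the muscarinic receptor that opens Kir3 channels, was at 57.7, 38.4 and 39.4 CPM in control 5w, 3.88, 2.84 and 8.40 in HFpEF, 9.70, 5.41 and 17.0 in control 9w, 20.0, 11.4 and 12.4 in untreated and 46.7, 111 and 68.0 in EMPA + PFD. It fell in HFpEF (edgeR log2 fold change -3.16 ± 0.45 SE, adjusted p 0.000880) and rose in EMPA + PFD against untreated (edgeR 2.36, adjusted p 0.00854) beside Kcnj3. In HFpEF the other receptor of this pathway, Adora1 (log2 fold change -2.34), was also called lower by edgeR. So were the G protein subunit gene Gnao1 (-1.42) and Rgs6 (-1.76), a regulator gene whose product shuts the signal off. The other listed genes of G proteins and their regulators were not called in HFpEF. Gnai3 (0.66), Gnai2 (0.29), Gnb2 (0.23), Gnb1 (0.13) and Rgs4 (0.10) had positive values there, and Gnb5 a negative one (-0.66). In control 9w against control 5w edgeR also called Chrm2 lower, -2.06 (adjusted p 0.00272), and Adora1, -1.91 (adjusted p 0.0221), but not Gnao1 or Rgs6. Gnai3 was called higher in that comparison, 1.28 (edgeR adjusted p 0.000606).

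Iroquois factors pattern the gradient of Kv4 pores across the ventricular wall, Irx5 as a repressor of Kcnd2. Irx3, Irx4 and Irx5 fell in HFpEF (log2 fold changes -1.48, -1.72 and -2.47, each called by edgeR) and were lower in control 9w than in control 5w (-1.67, -1.58 and -2.17, each called). Irx5 was at 28.6, 14.7 and 14.3 CPM in control 5w, 2.80, 4.22 and 3.39 in HFpEF and 4.96, 2.09 and 5.68 in control 9w. Hcn4, the pacemaker channel gene of nodes and young muscle, was at 48.0, 54.7 and 59.0 CPM in control 5w, 4.52, 1.65 and 3.04 in HFpEF, 1.35, 0.369 and 2.49 in control 9w and 18.6, 24.7 and 14.3 in EMPA + PFD. It was called lower in HFpEF and in control 9w than in control 5w (edgeR log2 fold changes -4.11 and -5.21) and higher in EMPA + PFD than in untreated and control 9w (1.75 and 3.72). Sgk1, a kinase that raises the surface level of several potassium channels, went the other way, with edgeR log2 fold changes of 2.12 in HFpEF, 2.96 in control 9w against control 5w and -1.39 in EMPA + PFD against control 9w. The T-box factor Tbx20 was called lower in HFpEF (-1.73) and in control 9w against control 5w (-1.46). It was called higher in EMPA + PFD against untreated (1.75, edgeR adjusted p 0.0440) and control 9w (2.07). Tbx20 stood at 20.9, 87.6 and 56.3 CPM in EMPA + PFD and 15.3, 24.0 and 9.59 in untreated, so these groups overlapped. Single-library omissions were not computed for these partner genes.

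The remaining marker lists follow. Fibroblast markers (8, Col3a1 the most abundant, none at 0) summed to 4505, 44963 and 36468 CPM in control 5w, 17219, 9629 and 12721 in HFpEF, 4324, 3073 and 4606 in control 9w and 3922, 8458 and 3756 in untreated. They summed to 3724 and 7682 CPM in EMPA, 4454 and 3864 in PFD and 4671, 2095 and 3979 in EMPA + PFD, and 6 of 8 were called lower in control 9w than in control 5w, where libraries 2 and 3 stand out. Endothelial markers (8, Vwf the most abundant, none at 0) summed to 1848, 1512 and 1738 CPM in control 5w, 1736, 3689.6 and 2908 in HFpEF, 3914, 3994 and 3443 in control 9w and 3039, 3535 and 3304 in untreated. They summed to 3090.4 and 2379.7 CPM in EMPA, 2499.7 and 2671 in PFD and 2168, 1830.0 and 1920.3 in EMPA + PFD. Of these 8, 6 were called higher in control 9w than in control 5w and 5 lower in EMPA + PFD than in control 9w. In HFpEF 2 were called higher than in control 5w (median log2 fold change 0.73). In EMPA + PFD 1 was called lower than in untreated (median -0.73). Of the 7 atrial markers, 4 were called higher in control 9w than in control 5w, 2 lower in EMPA + PFD than in untreated and 6 lower than in control 9w. Myeloid markers (8, Lyz2 the most abundant, none at 0) summed to 536, 1923 and 1535 CPM in control 5w, 2528, 509 and 1435 in HFpEF, 318, 265 and 354 in control 9w, 353, 681 and 372 in untreated, 492 and 510.4 in EMPA, 399.8 and 313 in PFD and 266, 250.3 and 347 in EMPA + PFD; 5 were called lower in control 9w than in control 5w. T, B and NK lymphocyte markers (8 in the files, Cd2 the most abundant, none at 0) summed to 11.3, 14.8 and 17.4 CPM in control 5w, 50.0, 36.1 and 41.5 in HFpEF, 26.3, 22.4 and 18.6 in control 9w, 34.0, 30.0 and 19.2 in untreated, 34.6 and 14.2 in EMPA, 12.7 and 27.5 in PFD and 22.6, 9.68 and 16.1 in EMPA + PFD; of the 7 tested, 4 were called higher in HFpEF, 1 in control 9w against control 5w and 1 in untreated. The lymphocyte and myeloid sums were both highest in HFpEF library 1. Mesothelial markers (4 in the files, Wt1 the most abundant, none at 0) summed to 55.4, 27.7 and 39.0 CPM in control 5w, 71.6, 119 and 131 in HFpEF, 139, 194 and 107 in control 9w, 80.9, 103 and 111 in untreated, 129 and 79.4 in EMPA, 131 and 95.0 in PFD and 64.6, 84.3 and 54.8 in EMPA + PFD; 3 were called higher in HFpEF, 1 higher in control 9w against control 5w and 1 lower in EMPA + PFD against control 9w.

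Erythroid markers (4 in the files, Hbb the most abundant, none at 0) summed to 1665, 1024 and 1611 CPM in control 5w, 1660.2, 1304 and 3646 in HFpEF, 1443, 1732 and 1114 in control 9w, 219.9, 175 and 287 in untreated, 2145 and 421 in EMPA, 671 and 814 in PFD and 137, 456 and 201 in EMPA + PFD; 2 were called lower in untreated than in control 9w, 1 higher in EMPA + PFD than in untreated and 3 lower in EMPA + PFD than in control 9w. Conduction markers (9, Cacna1g the most abundant, none at 0) summed to 115, 191 and 186 CPM in control 5w, 164, 111 and 114 in HFpEF, 149, 141 and 174 in control 9w, 88.7, 363 and 122 in untreated, 132 and 227 in EMPA, 102 and 91.5 in PFD and 95.6, 90.1 and 87.0 in EMPA + PFD. Of the 7 conduction markers tested, 1 was called each way in HFpEF, in control 9w against control 5w, and in EMPA + PFD against untreated and against control 9w; smooth muscle and skeletal muscle markers had 1 higher each in control 9w, and neuron and adipocyte markers had 0 calls in the 7 comparisons by edgeR. The part of these cells in the channel results was not tested.

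The tested members called in none of the 7 comparisons are 28, and the ranges below, in CPM over the 19 libraries, are for members not given library by library above. Pores and subunits of voltage-gated channels were Kcnip3 (1.06 to 3.44), Kcnip4 (0 to 1.30), Kcnc2 (0.120 to 1.90), Kcns3 (6.37 to 19.6), Kcng4 (0.283 to 4.29), Kcne2 (0.776 to 3.05), Kcne3 (0.946 to 6.33) and Kcnq5 (0.369 to 1.67). Inward rectifiers and calcium- or sodium-activated members were Kcnj14 (3.58 to 16.2), Kcnj9 (0.246 to 3.04), Kcnj15 (0.837 to 4.89), Kcnn1 (2.08 to 6.68), Kcnn4 (3.11 to 17.6), Kcnmb1 (1.06 to 10.9), Kcnmb2 (0.400 to 2.11) and Kcnt2 (1.09 to 4.05), and the regulator was Kcnrg (0.105 to 1.13). The 30 untested members with 1 to 10 counts in their best library include Kcna1, Kcna10, Kcnab3, Kcnb2, Kcnc1, Kcne5, Kcnf1, Kcng1, Kcng3, Kcnh1, Kcnh3, Kcnh4, Kcnh5, Kcnh6, Kcnh7, Kcnip1, Kcnj1, Kcnj10, Kcnj16, Kcnk10, Kcnk12, Kcnk15, Kcnk16, Kcnk18, Kcnk4, Kcnmb3, Kcnq3, Kcns1 and Kcnv1. RefSeq also places other genes of the count files over Kcnj9 (Igsf8), Kcne3 (LOC100912071), Kcnh3 (Mcrs1), Kcnh7 (Gca), Kcnk15 (Rims4) and Kcnk16 (Nudt13), and since the strand used in counting is not stated, the counts of all these overlapping genes are uncertain.

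The 5 inward rectifier genes called lower in HFpEF (Kcnj2, Kcnj12, Kcnj3, Kcnj5 and Kcnj6) moved the same way, so their promoters are shown where the RefSeq table holds one, which it does for 3 of them; Kcnj12 and Kcnj3 are missing. Each sequence is the 250 bases before the gene's start in build GRCr8, read 5′ to 3′ on the gene's strand: Kcnj2 at chr10:96559975-96560224 on the plus strand, Kcnj5 at chr8:39011097-39011346 and Kcnj6 at chr11:47778349-47778598 on the minus strand. Both the genes and the motifs were chosen after the values were seen. Capitals mark every match, on either strand, to the TATA box (TATAAA), the sequence CCAAT, the GC box (GGGCGG) or the E box (CANNTG, where N is any base); in these windows no match overlaps another. 
Kcnj2: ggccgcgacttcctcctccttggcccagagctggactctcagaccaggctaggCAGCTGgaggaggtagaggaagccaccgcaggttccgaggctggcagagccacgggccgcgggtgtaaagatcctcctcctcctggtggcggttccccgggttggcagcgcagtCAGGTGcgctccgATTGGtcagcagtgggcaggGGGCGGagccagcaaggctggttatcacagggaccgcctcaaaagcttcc
Kcnj5: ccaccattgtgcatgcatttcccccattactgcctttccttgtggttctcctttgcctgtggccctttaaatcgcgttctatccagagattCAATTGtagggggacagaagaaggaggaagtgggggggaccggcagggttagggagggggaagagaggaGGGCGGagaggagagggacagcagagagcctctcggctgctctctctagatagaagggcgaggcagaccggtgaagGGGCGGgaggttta
Kcnj6: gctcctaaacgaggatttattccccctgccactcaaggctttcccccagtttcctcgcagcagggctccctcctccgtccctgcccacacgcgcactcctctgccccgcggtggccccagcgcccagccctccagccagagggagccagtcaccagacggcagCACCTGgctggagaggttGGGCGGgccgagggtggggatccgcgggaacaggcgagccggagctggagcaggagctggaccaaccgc
All 3 windows hold the GC box and the E box, which 30.5% and 65.5% of the 33469 promoter windows of this length in the table hold; among the 68 windows of the 62 Kcn genes in the table the shares are 48.5% and 58.8%. The Kcnj2 window alone holds CCAAT (34% of all windows), on the minus strand, and none of the 3 holds the TATA box (12.9%). A match is a description of letters, not a site in use, and the count files themselves were made on the older build rn6.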

How the data were processed

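The authors' deposited counts per gene symbol, 1 file per library, were made by them with Trim Galore, HISAT2 (build rn6) and HTSeq; versions, strand and overlap mode are not given, and they left out 1 EMPA and 1 PFD sample for damaged files. From these counts, edgeR 4.0.16 (R 4.3.3) fitted 1 quasi-likelihood model of 7 groups and 19 libraries with TMM scaling and its filter on low counts, and p-values were adjusted over the 12388 genes left. The same fit gave the 7 comparisons of groups and the 2 interactions. Members, partner genes, marker lists and comparisons were chosen with earlier results of these data known. Genes named are those of the known cardiac currents and each one called, others by range or where libraries stand apart; results of some single genes are not reported here. Alternatives were RLE and upper-quartile scaling, 2 other count filters, DESeq2 1.42.0, limma 3.58.1 voom with sample weights, a fit of the compared groups alone, the adjusted p alone, a replicate block, and each library left out. At 7430539 to 13017754 counts a library, a gene at 1 CPM rests on about 8 to 14 counts, and such genes are the least precise. Promoter sequences and gene overlaps are from RefSeq (GRCr8).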

Additional observations from a re-analysis of the deposited data

Results flagged for a closer look

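The disease contrast at week 9 (untreated minus control 9w) was set against that at week 5 (HFpEF minus control 5w). By the edgeR test of that difference, 11 of the 53 potassium channel genes tested were called. Of these, 8 were higher, beside 6.35% of all genes, and 3 lower, beside 5.67%. With each library left out in turn, the number of calls ran from 6 to 14. The calls of Kcnj6, Kcnj3, Kcnn3, Kcnmb4 and Kcnd3 were each lost in some of those fits. The log2 difference was positive for Kcnv2 (4.08, adjusted p 0.00473), Kcng2 (3.16, 0.00511), Kcnk3 (3.07, 0.00473), Kcnj6 (2.70, 0.0318), Kcnj2 (2.34, 0.00307), Kcnj12 (2.27, 0.0132), Kcnj3 (2.14, 0.0377) and Kcnn3 (1.34, 0.0471). It was negative for Kcna5 (-3.49, adjusted p 0.0105 by edgeR), Kcnmb4 (-1.91, 0.0306) and Kcnd3 (-1.30, 0.0472). The contrasts at both weeks use separate libraries. The week 5 groups lack the MHC transcripts that both week 9 groups hold, so week and this difference cannot be told apart. The Y-linked ones are missing from the 3 untreated libraries and from HFpEF libraries 1 and 3, and so differ within both contrasts. Ventricular markers (3 of 10 higher), endothelial (3 of 8 lower) and erythroid ones (3 of 4 lower), among others, were also called in this test. The part of the Y-linked difference and of these cells was not tested.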

How the results depend on the processing

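Potassium channel genes called under each alternative are given here where the number moved by more than 1.5 times; where no reason is given, the cause was not tested. HFpEF against control 5w had 13 calls, and 7 with only genes of 10 counts in every library (which tests 26 of the 53), 5 in the fit of the compared groups alone and 7 without HFpEF libraries 1 and 3. Control 9w against control 5w had 18, and 7 with the filter of 10 counts. Untreated against control 9w had 2, and 1 with all genes of 1 count or more, 1 with the filter of 10 counts, 6 by DESeq2, 11 by limma voom and 0 without the atrial-marked libraries. EMPA + PFD against untreated had 5, and 9 by DESeq2, 10 by limma voom, 0 in the fit of the compared groups alone and 1 without the atrial-marked libraries. EMPA against untreated had 0 by edgeR, 1 by DESeq2 and 0 by limma voom, with 9 at an unadjusted p under 0.05. The disease-by-week difference had 11, and 22 by limma voom, 11 higher and 11 lower. The interaction of both agents had 0 by edgeR, 1 by DESeq2 and 1 by limma voom, with 6 at an unadjusted p under 0.05. EMPA + PFD against control 9w stayed within 1.5 times its 13 under all of these, and PFD against untreated stayed at 0 by all 3 tools, with 3 at an unadjusted p under 0.05 by edgeR. The fits without HFpEF libraries 1 and 3 and without the atrial-marked libraries were chosen after seeing the data; each leaves 1 group with 1 library, assumed to vary like the other groups.

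With each library left out in turn, the numbers ran from 6 to 15 for HFpEF against control 5w, 10 to 19 for control 9w against control 5w, 0 to 4 for untreated against control 9w, 0 to 9 for EMPA + PFD against untreated, 6 to 15 for EMPA + PFD against control 9w and 6 to 14 for the disease-by-week difference. They were 0 in each such fit for the single agents and for their interaction. Leaving out an EMPA or PFD library leaves 1 in that group, assumed to vary like the others.

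With the replicate number as a replicate block, untreated against control 9w had 0 calls by edgeR, EMPA + PFD against untreated 3 and the disease-by-week difference 7. Of 62 called gene results 12 lost the call: Kcnn3 in HFpEF, Kcnj6 and Kcnma1 between the controls, Kcnd3 and Kcnv2 in untreated, Kcnj3 and Kcnq1 in EMPA + PFD against untreated, Kcnj3 in EMPA + PFD against control 9w, and Kcnd3, Kcnj6, Kcnmb4 and Kcnn3 in the disease-by-week difference. The block spends degrees of freedom, and the numbers did not pair libraries: 52 pairs with the same number had a median correlation of -0.067 (from -0.53 to 0.49, 11 of them over 0.1) beside 0.038 for 102 pairs with other numbers, and 5 of 19 libraries were closest to their own number.

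For single genes there were 62 called results; 22 were called with each other scaling, filter, tool and fit that tested the gene and with each library left out, and none of the 62 changed direction. Of the 22, 4 lost the call in a fit chosen after seeing the data, among them Kcnj6 in HFpEF without HFpEF libraries 1 and 3, and, without the atrial-marked libraries, Kcnn3 between the controls and Kcne1 in EMPA + PFD against control 9w. Over all alternatives and left-out libraries 1490 values kept their call and 279 lost it. With 2 or 3 libraries a group and few counts for many members, a missing call says little about a gene's level.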
